A study of Homo sapiens with 12 samples.

Results

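The 10 genes described here encode enzymes of serine, glycine, mitochondrial one-carbon, asparagine and phosphoenolpyruvate metabolism: PHGDH, PSAT1, PSPH, SHMT1, SHMT2, MTHFD2, MTHFD1L, ALDH1L2, ASNS and PCK2. They were taken by gene symbol from the 26475 genes of the count table, and all 10 were measured in all 12 libraries and passed the filter on low counts in every comparison. The genes were chosen with their responses to BAY-850 known, so their differences with BAY-850 are given as a description, with no p-value, and counts past a threshold stand only beside the share of all genes that passed it. The largest of these differences were in SK-OV-3 cells, where PCK2 was 3.98-fold, PHGDH 2.61-fold and ASNS 2.56-fold higher with BAY-850 than with DMSO. In PA-1 cells no member differed by more than 1.16-fold. With DMSO all 10 were lower in SK-OV-3 than in PA-1, from 1.28-fold for SHMT1 to 84.4-fold for ASNS. Of all genes tested, 40.2% were lower and 40.1% higher there at an adjusted p under 0.05 (edgeR). With BAY-850 every SK-OV-3 library still lay below every PA-1 library for each of the 10. The share of all genes that did so was not counted.

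Cells make serine from a glycolytic intermediate in the order PHGDH, PSAT1, PSPH. The serine hydroxymethyltransferases, SHMT1 in the cytosol and SHMT2 in mitochondria, split serine into glycine and a folate-bound carbon, and MTHFD2, MTHFD1L and ALDH1L2 carry that carbon through the mitochondrial folate pathway towards formate, carbon dioxide and reducing equivalents. ASNS makes asparagine from aspartate and glutamine, and PCK2 makes phosphoenolpyruvate from oxaloacetate in mitochondria. Most of these genes are textbook targets of ATF4, the transcription factor whose translation increases when amino acids are short or the endoplasmic reticulum is stressed, and the ASNS promoter is the classic example of an ATF4-responsive promoter. In tumours the serine and mitochondrial folate enzymes are known for supplying carbon units to nucleotide synthesis.

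RNA was sequenced from 4 groups of 3 biological replicates each. PA-1 is a cell line from a human ovarian teratocarcinoma and SK-OV-3 a cell line from a human ovarian adenocarcinoma, so each line stands for a single tumour. Each line received DMSO, the vehicle, or 5 µM BAY-850, a small molecule that blocks the bromodomain of the chromatin ATPase ATAD2, for 48 h. PA-1 cells were kept in DMEM and SK-OV-3 cells in RPMI, both with fetal bovine serum and penicillin with streptomycin. Standard RPMI contains asparagine and standard DMEM does not, and line and medium cannot be told apart in any comparison between the lines.

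The libraries held 34544505 to 51840233 counts each, of which ribosomal RNA genes took 7.94% to 16.9%. SK-OV-3 BAY-850 replicate 3 stood apart, with at least 1 count for 15626 genes against 17418 to 18403 in the other libraries, and the differences of the 10 enzymes in SK-OV-3 are therefore given with and without it. Of the pathway genes named below as passing in SK-OV-3 by the rule for named genes, GCSH and GOT1 no longer passed without it. Of 8 germ cell and pluripotency markers, all 8 reached a mean of 1 CPM (the usual depth-scaled count of a gene, relative to the library total) in PA-1, with summed levels of 1440 to 1736 CPM, and 2 did so in SK-OV-3, POU5F1 and DNMT3B. Their summed level in SK-OV-3 was 36.3 to 40.8 CPM in the DMSO libraries and 78.6 to 81.6 CPM in the BAY-850 libraries. The higher sum came mostly from DNMT3B, whose mean was 31.5 CPM in the DMSO group and 70.6 CPM in the BAY-850 group. POU5F1 had means of 6.74 and 8.15 CPM in the same order. Each other marker of this list had a mean of at most 0.489 CPM in either SK-OV-3 group. SOX2 and DPPA4 were at 0 in the DMSO group, and LIN28B and DPPA4 in the BAY-850 group. Of 8 markers of epithelial adenocarcinoma, 7 reached a mean of 1 CPM in SK-OV-3, with summed levels of 4128 to 4433 CPM with DMSO and 2898 to 3360 CPM with BAY-850. In PA-1 5 of them did, with summed levels of 925 to 1054 CPM. ERBB2 alone had 2416 CPM in SK-OV-3 with DMSO and 1782 CPM with BAY-850. KRT8 and KRT18 did not separate the lines in this direction. With DMSO they had 599 and 266 CPM in SK-OV-3 and 532 and 335 CPM in PA-1. With BAY-850 they had 416 and 237 CPM in SK-OV-3 and 580 and 352 CPM in PA-1. The other markers of this list were higher in SK-OV-3 with either treatment. Of 8 markers of leukocytes, endothelium, stroma and red cells, 3 reached a mean of 1 CPM in each group, with summed levels of 28.6 to 44.1 CPM. These were CD68, PECAM1 and VWF in PA-1 and CD68, PECAM1 and LUM in SK-OV-3. CD68 had 28.6 CPM in SK-OV-3 with DMSO and 39.0 CPM with BAY-850, and PECAM1 had 23.6 and 25.4 CPM in PA-1. PTPRC, CD3E, DCN and HBB had a mean of at most 0.112 CPM in any group.

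Promoter sequences are shown to set the letters of a known amino acid response element beside the values. They are those of the 3 members with the largest difference in SK-OV-3 and of MTHFD1L, which also held that element. RefSeq windows on GRCh38.p14, from 250 bases before to 50 bases after an annotated start, were at hand for 7 of the 10 members, 11 windows in all. They were searched on both strands for TGATGNAA, the core of the C/EBP-ATF response element, and for CACGTG, the E-box that MYC and related factors bind, which do not overlap in these windows. The first occurred in 3.62% and the second in 7.26% of 35116 windows of this length. Capitals mark the matches in the sequences below, each written 5′ to 3′ on the strand of its gene.
ASNS (chr7:97872359-97872658, minus strand): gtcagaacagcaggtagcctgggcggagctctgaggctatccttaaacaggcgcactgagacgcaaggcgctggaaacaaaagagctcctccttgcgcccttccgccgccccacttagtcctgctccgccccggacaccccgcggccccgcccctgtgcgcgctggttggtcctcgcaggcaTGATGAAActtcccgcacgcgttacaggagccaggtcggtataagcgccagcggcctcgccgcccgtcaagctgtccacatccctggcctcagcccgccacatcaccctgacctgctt
PHGDH (chr1:119711684-119711983, plus strand): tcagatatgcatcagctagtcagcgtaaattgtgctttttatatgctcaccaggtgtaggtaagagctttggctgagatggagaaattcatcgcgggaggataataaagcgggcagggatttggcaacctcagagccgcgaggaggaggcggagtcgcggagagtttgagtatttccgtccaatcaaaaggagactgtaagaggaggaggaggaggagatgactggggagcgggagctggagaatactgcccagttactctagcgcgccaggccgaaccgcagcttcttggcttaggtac
PCK2 (chr14:24094061-24094360, plus strand): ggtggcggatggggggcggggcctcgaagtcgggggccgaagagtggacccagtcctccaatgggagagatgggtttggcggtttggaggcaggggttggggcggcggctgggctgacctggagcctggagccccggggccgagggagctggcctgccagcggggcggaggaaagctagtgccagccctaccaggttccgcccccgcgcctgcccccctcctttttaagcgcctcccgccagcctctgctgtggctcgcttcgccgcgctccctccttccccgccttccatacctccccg
MTHFD1L (chr6:150866236-150866535, plus strand): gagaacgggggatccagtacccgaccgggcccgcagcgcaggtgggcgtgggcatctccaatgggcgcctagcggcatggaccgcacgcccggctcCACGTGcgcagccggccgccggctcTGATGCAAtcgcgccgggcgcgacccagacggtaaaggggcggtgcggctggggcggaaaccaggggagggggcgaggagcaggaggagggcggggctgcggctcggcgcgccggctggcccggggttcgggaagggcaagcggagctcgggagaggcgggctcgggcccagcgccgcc
The ASNS window held TGATGAAA beginning 68 bases before the start, and the window at another ASNS start held neither set of letters. The MTHFD1L window held TGATGCAA beginning 129 bases and CACGTG beginning 154 bases before the start. The same stretch of the chromosome also lies in 2 further overlapping windows of MTHFD1L at other starts, so these are not separate matches. In 1 of these windows TGATGCAA begins after the start. The PHGDH and PCK2 windows held neither set of letters. Over all windows, 2 members had the response element and 1 had the E-box. A match describes the letters and is not a measured site.

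Levels are CPM scaled by the trimmed mean of M-values (TMM), with the library values given in the order of replicates 1, 2 and 3. Differences are log2 fold changes from edgeR's quasi-likelihood fit, with the standard error (SE) after the ± sign. Lower counts from fewer expressing cells and from less RNA in each cell cannot be told apart in these bulk samples.

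**Figure D1:**
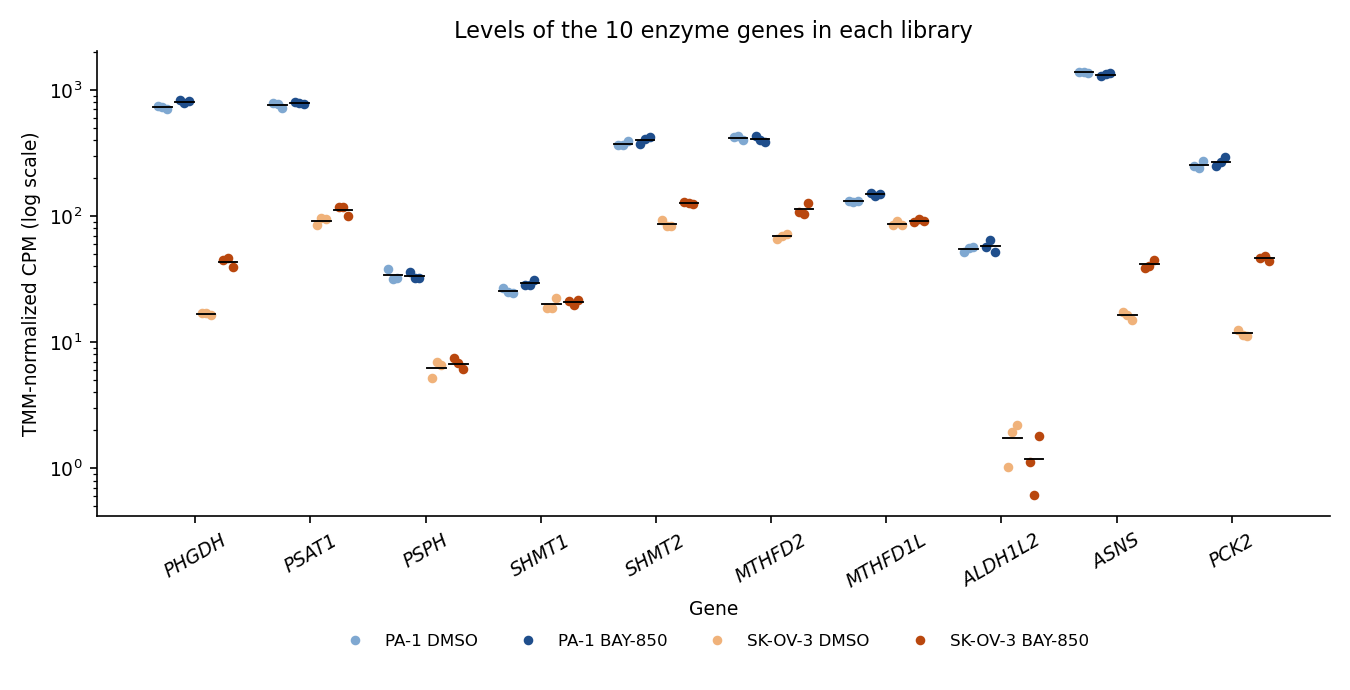
TMM-normalized CPM (log axis) of the 10 genes, with 1 point per library, 3 libraries per group and a black line at each group mean. For every gene the SK-OV-3 points lie below the PA-1 points, a separation whose share over all genes was not counted. The margin is widest for ASNS, at 15.1 to 17.4 CPM against 1370 to 1387 CPM with DMSO. The SK-OV-3 points with BAY-850 clear those with DMSO for 6 genes, where 18.1% of all genes tested did so in the higher direction. The 10 genes were chosen with this contrast known.

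The serine synthesis pathway came first. PHGDH (chr1:119648411-119744226, plus strand, GRCh38), the enzyme that commits phosphoglycerate to serine, had 17.2, 16.9 and 16.5 CPM in SK-OV-3 with DMSO and 44.9, 46.8 and 39.2 CPM with BAY-850. The groups did not overlap, and the log2 difference was 1.38 ± 0.085. Without replicate 3 of the BAY-850 group it was 1.44 ± 0.077. In PA-1 the level was 750.2, 735 and 709 CPM with DMSO and 824, 781 and 817 CPM with BAY-850. These groups did not overlap either, but the difference was only 0.14 ± 0.050 on the log2 scale.

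PSAT1 (chr9:78297143-78330093, plus strand), the aminotransferase of the second step, had 85.1, 96.2 and 94.2 CPM in SK-OV-3 with DMSO and 118, 118 and 99.8 CPM with BAY-850. Replicate 3 of the BAY-850 group was the lowest of its group, yet lay above the highest DMSO library. The log2 difference was 0.29 ± 0.071, and 0.36 ± 0.063 without that replicate. In PA-1 the values were 783, 778 and 723 CPM with DMSO and 806, 786 and 779 CPM with BAY-850, which overlapped, with a log2 difference of 0.055 ± 0.051.

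PSPH (chr7:56011051-56051604, minus strand), the phosphatase that releases serine, did not separate by treatment in either line. It had 5.18, 6.96 and 6.66 CPM in SK-OV-3 with DMSO and 7.45, 6.80 and 6.09 CPM with BAY-850, a log2 difference of 0.13 ± 0.17, and 0.19 ± 0.16 without replicate 3. In PA-1 it had 37.7, 31.5 and 32.6 CPM with DMSO and 36.3, 32.0 and 32.5 CPM with BAY-850, a log2 difference of -0.010 ± 0.082. The serine pathway was thus uneven in SK-OV-3, with the first enzyme higher by far more than those that follow. The count of PSAT1 per count of PHGDH showed this within each library. It was 4.96, 5.69 and 5.71 in SK-OV-3 with DMSO and 2.62, 2.51 and 2.55 with BAY-850, against 0.953 to 1.06 over the 6 PA-1 libraries.

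SHMT1 and SHMT2 catalyse the same reaction in different compartments. SHMT2 (chr12:57229327-57234935, plus strand) had 93.5, 83.3 and 84.0 CPM in SK-OV-3 with DMSO and 129.8, 127 and 126 CPM with BAY-850. All 3 BAY-850 libraries lay above all 3 DMSO libraries, with a log2 difference of 0.57 ± 0.061, and 0.56 ± 0.064 without replicate 3. SHMT1 (chr17:18327860-18363563, minus strand) had 18.8, 18.6 and 22.4 CPM with DMSO and 21.2, 19.7 and 21.5 CPM with BAY-850, which overlapped, with a log2 difference of 0.075 ± 0.10, and 0.036 ± 0.10 without replicate 3.

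In PA-1 the libraries separated for SHMT1 and not for SHMT2. SHMT1 had 26.8, 25.1 and 24.4 CPM with DMSO and 28.3, 28.6 and 31.4 CPM with BAY-850, groups that did not overlap, with a log2 difference of 0.21 ± 0.077. SHMT2 had 367, 366 and 392 CPM with DMSO and 374, 405 and 422 CPM with BAY-850, groups that overlapped, with a log2 difference of 0.095 ± 0.059. The count of SHMT2 per count of SHMT1 was 4.98, 4.47 and 3.75 in SK-OV-3 with DMSO and 6.14, 6.46 and 5.84 with BAY-850, and 13.2 to 16.1 over the PA-1 libraries. SHMT2 thus had more counts than SHMT1 in every library, with no correction for length, and by the wider margin in PA-1.

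Of the mitochondrial folate enzymes, MTHFD2 (chr2:74198562-74217565, plus strand), the dehydrogenase and cyclohydrolase that is low in most adult tissues, had 65.7, 69.8 and 71.5 CPM in SK-OV-3 with DMSO and 108, 104 and 127 CPM with BAY-850. Replicate 3 was the highest of the BAY-850 group. The log2 difference was 0.73 ± 0.084, and 0.62 ± 0.060 without that replicate. In PA-1 MTHFD2 had 424, 428 and 401 CPM with DMSO and 431, 400.4 and 383 CPM with BAY-850, which overlapped, with a log2 difference of -0.043 ± 0.057.

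MTHFD1L (chr6:150865549-151101887, plus strand), the ligase that releases formate, had 85.4, 91.6 and 84.4 CPM in SK-OV-3 with DMSO and 90.0, 94.8 and 91.4 CPM with BAY-850, which overlapped, with a log2 difference of 0.093 ± 0.059, and 0.085 ± 0.062 without replicate 3. In PA-1 it had 132, 129 and 131 CPM with DMSO and 153, 145 and 151 CPM with BAY-850, which did not overlap, with a log2 difference of 0.20 ± 0.054. ALDH1L2 (chr12:105019784-105084577, minus strand), which oxidises formyl-folate to carbon dioxide in mitochondria, was the member with the lowest level per kilobase in SK-OV-3. It had 1.03, 1.96 and 2.23 CPM with DMSO and 1.13, 0.616 and 1.82 CPM with BAY-850, from 26 to 98 counts in a library. The log2 difference of -0.52 ± 0.48 was about as large as its error, and became -0.99 ± 0.43 without replicate 3 of the BAY-850 group. In PA-1 ALDH1L2 had 51.4, 56.0 and 57.2 CPM with DMSO and 57.3, 64.6 and 52.2 CPM with BAY-850, a log2 difference of 0.082 ± 0.077.

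The 3 mitochondrial folate enzymes therefore did not move as a block in SK-OV-3. Against MTHFD1, the cytosolic enzyme with the same chemistry, the count of MTHFD2 was 0.829, 0.841 and 0.789 per count in SK-OV-3 with DMSO and 1.70, 1.54 and 1.96 with BAY-850. In PA-1 the ratio was 3.11, 3.11 and 2.92 with DMSO and 2.90, 2.64 and 2.67 with BAY-850, so it was lower with BAY-850 in PA-1 and higher in SK-OV-3, without overlap in either line.

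ASNS (chr7:97852118-97872542, minus strand) was abundant in PA-1 and scarce in SK-OV-3. In SK-OV-3 it had 17.4, 16.5 and 15.1 CPM with DMSO and 38.8, 40.4 and 45.2 CPM with BAY-850. All BAY-850 libraries lay above all DMSO libraries, with a log2 difference of 1.36 ± 0.097, and 1.28 ± 0.088 without replicate 3. In PA-1 it had 1387, 1377 and 1370.1 CPM with DMSO and 1276, 1324 and 1363 CPM with BAY-850, so that every BAY-850 library was below every DMSO library, by a log2 difference of -0.059 ± 0.048. The differences of ASNS thus had opposite signs in the 2 lines, though the one in PA-1 was close to its error. There 5893 of 15212 genes tested had a lower log2 fold change. Of all genes tested, 13.3% were lower without overlap in PA-1 and 18.1% higher without overlap in SK-OV-3. The share that did both was not counted.

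PCK2 (chr14:24094053-24110598, plus strand) had the largest difference of the 10. It had 12.5, 11.4 and 11.2 CPM in SK-OV-3 with DMSO and 46.8, 48.1 and 44.2 CPM with BAY-850, a log2 difference of 1.99 ± 0.084, and 2.01 ± 0.085 without replicate 3. Of the 15348 genes tested in SK-OV-3, 61 had a higher log2 fold change than PCK2, 170 than PHGDH and 182 than ASNS. In PA-1 PCK2 had 248, 242 and 272 CPM with DMSO and 248, 266 and 296 CPM with BAY-850, which overlapped, with a log2 difference of 0.089 ± 0.070. Its cytosolic counterpart PCK1, the enzyme of liver and kidney gluconeogenesis, had 0 to 3 counts in any library, so PCK2 was the form measured in both lines.

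**Figure D2:**
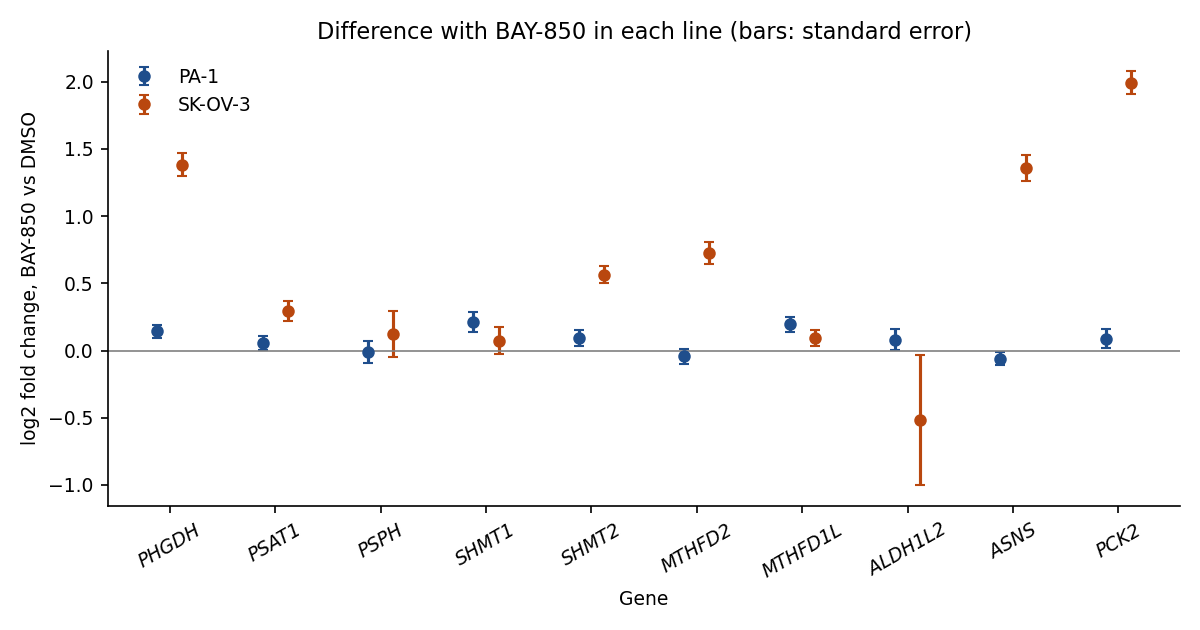
Log2 fold change of BAY-850 against DMSO for the 10 genes in PA-1 (blue) and SK-OV-3 (orange), with bars of 1 standard error. PCK2, PHGDH and ASNS stand between 1.36 and 1.99 in SK-OV-3, while all 10 lie between -0.059 and 0.21 in PA-1.

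Over the 10 genes, the median log2 fold change was 0.43 in SK-OV-3 and 0.085 in PA-1, against -0.0091 and -0.0019 over all genes tested in each line. In SK-OV-3, 6 members were higher at an adjusted p under 0.05 (edgeR) and 0 lower, where 10.8% of all genes tested passed in the higher and 9.56% in the lower direction, and the same 6 had replicates that did not overlap, where 18.1% of genes did so in the higher and 20.5% in the lower direction. In PA-1, 1 member, MTHFD1L, passed in the higher direction and 0 in the lower, where 4.65% and 2.48% of genes did. MTHFD1L no longer passed when any PA-1 library was left out, leaving 0 members called. Among all genes, 707 passed in the higher and 378 in the lower direction in PA-1, against 235 and 231 with library size alone as the scale and 313 and 90 with the replicate block and GC trend together. Without overlap between replicates 3 members were higher and 1 lower in PA-1, where 14.1% and 13.3% of genes were. In SK-OV-3, 5 members were higher without BAY-850 replicate 1 or without replicate 2, each time without PSAT1, whose log2 difference was then 0.26 ± 0.083 and 0.26 ± 0.085. The members were selected on these contrasts, so nothing is read from the counts.

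The response in SK-OV-3 minus that in PA-1, fitted over all 12 libraries, was 1.89 ± 0.10 for PCK2, 1.40 ± 0.086 for ASNS, 1.23 ± 0.085 for PHGDH, 0.76 ± 0.099 for MTHFD2 and 0.46 ± 0.082 for SHMT2 on the log2 scale. It was 0.23 ± 0.092 for PSAT1 and 0.12 ± 0.17 for PSPH. For SHMT1, MTHFD1L and ALDH1L2 it was -0.15 ± 0.13, -0.11 ± 0.070 and -0.58 ± 0.35. Without SK-OV-3 BAY-850 replicate 3 it was 1.93 ± 0.11 for PCK2, 1.34 ± 0.077 for ASNS, 1.30 ± 0.070 for PHGDH, 0.67 ± 0.082 for MTHFD2 and 0.47 ± 0.087 for SHMT2. PSAT1 was then at 0.30 ± 0.078, PSPH at 0.20 ± 0.17, SHMT1 at -0.18 ± 0.13, MTHFD1L at -0.11 ± 0.075 and ALDH1L2 at -1.07 ± 0.33. The values near their error moved most when another library was left out, with ALDH1L2 at -0.26 ± 0.31 without BAY-850 replicate 2 and -0.35 ± 0.39 without DMSO replicate 3, SHMT1 at -0.053 ± 0.12 without DMSO replicate 3, and PSPH at 0.0020 ± 0.16 without DMSO replicate 1, all of SK-OV-3. With all libraries the 5 members named first were past the threshold in the higher direction and 0 in the lower (6 and 1 without SK-OV-3 BAY-850 replicate 3), where 6.7% and 7.77% of 16830 genes were, and here too the choice of members used the contrast. Those shares are 1128 and 1307 genes, against 1062 and 773 with library size alone as the scale.

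The comparison of the lines with DMSO asks how far the enzymes' levels differed without BAY-850. It is not the response to BAY-850, but it shares the DMSO libraries with the treatment comparisons. The 10 genes were also chosen with earlier results of these data known, so the p-values below are not from an independent choice of genes. ASNS was 84.4-fold lower in SK-OV-3 than in PA-1 (log2 difference -6.40 ± 0.069, adjusted p = 4.24e-15, edgeR), and 464 of 16070 genes tested had a lower log2 fold change. PHGDH was 43.5-fold lower (-5.44 ± 0.061, adjusted p = 4.24e-15, edgeR) and ALDH1L2 31.7-fold lower (-4.99 ± 0.17, adjusted p = 2.96e-11, edgeR). PCK2 was 21.7-fold lower (-4.44 ± 0.075, adjusted p = 5.03e-14, edgeR). These were the 4 widest gaps among the 10.

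With DMSO PSAT1 was 8.31-fold lower in SK-OV-3 than in PA-1, MTHFD2 6.07-fold, PSPH 5.42-fold and SHMT2 4.33-fold, all with an adjusted p of at most 1.27e-09 (edgeR). MTHFD1L was 1.5-fold lower (-0.59 ± 0.055, adjusted p = 5.50e-07, edgeR) and SHMT1 1.28-fold lower (-0.35 ± 0.095, adjusted p = 0.00423, edgeR). All 10 members passed in the lower direction and 0 in the higher, where 40.2% and 40.1% of all genes tested did. The median log2 difference was -2.83 over the 10, against 0.0019 over all genes tested. All 10 calls held in each of the 15 alternatives to the fit, with SHMT1 the weakest at a highest adjusted p of 0.0230 (edgeR). Medium and line cannot be told apart in these values.

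**Figure D3:**
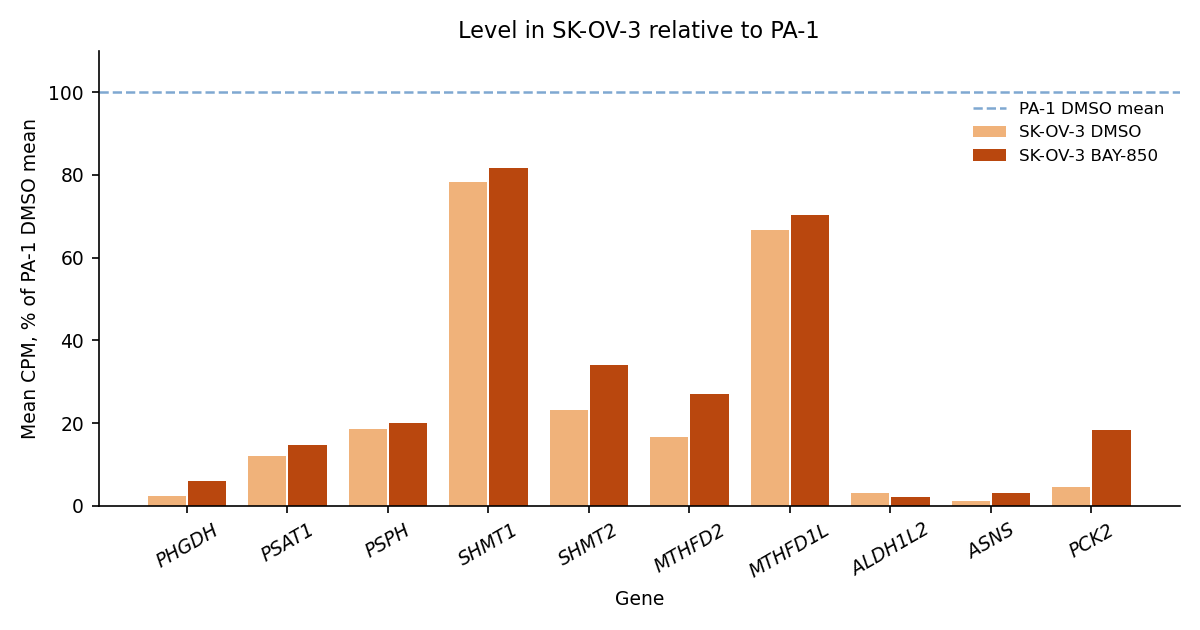
Mean CPM of each gene in SK-OV-3 with DMSO (light bars) and with BAY-850 (dark bars), as a percentage of its mean in PA-1 with DMSO (dashed line). SHMT1 and MTHFD1L reach 66.6% to 81.7% of the PA-1 level, whereas ASNS stands at 1.19% and 3.01% and PHGDH at 2.30% and 5.97%.

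With BAY-850 the level of PCK2 in SK-OV-3 was 18.2% of that in PA-1 with DMSO, from 4.62% with DMSO. PHGDH stood at 5.97% from 2.30% and ASNS at 3.01% from 1.19%. The highest SK-OV-3 library with BAY-850 had 45.2 CPM of ASNS and 46.8 CPM of PHGDH, against 1276 and 709 CPM in the lowest PA-1 library. Summed over the 10 genes, SK-OV-3 had 402, 413 and 408 CPM with DMSO and 606, 606 and 602 CPM with BAY-850, and PA-1 had 4208, 4167 and 4114 CPM with DMSO and 4233, 4233 and 4326 CPM with BAY-850. The level of the germ cell marker LIN28A, 756 CPM in PA-1 with DMSO, was 0.102 CPM in SK-OV-3 with DMSO and 0.197 CPM with BAY-850.

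Levels of different genes were compared per kilobase of merged exons. In PA-1 with DMSO the order was PSAT1 at 348 ± 15.2 CPM per kilobase (SD, n = 3), ASNS at 309 ± 1.89, MTHFD2 at 85.8 ± 3.00, PHGDH at 79.4 ± 2.24, SHMT2 at 77.6 ± 3.04 and PCK2 at 60.7 ± 3.82. MTHFD1L followed at 26.0 ± 0.279, PSPH at 12.3 ± 1.2, ALDH1L2 at 6.45 ± 0.359 and SHMT1 at 3.49 ± 0.175. Only PHGDH and SHMT2, neighbours in this order, had overlapping libraries. With BAY-850 the order in PA-1 kept PSAT1 and ASNS first at 361 ± 6.48 and 296 ± 9.76 CPM per kilobase, and PHGDH, MTHFD2 and SHMT2, at 87.6, 83.2 and 82.7 CPM per kilobase, each overlapped the next.

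In SK-OV-3 the order was another one. PSAT1 was first at 42.0 ± 2.70 CPM per kilobase with DMSO (SD, n = 3), followed by SHMT2 at 18.0 ± 1.17, MTHFD1L at 17.4 ± 0.775 and MTHFD2 at 14.2 ± 0.606. ASNS, PCK2, SHMT1, PSPH and PHGDH lay between 3.67 ± 0.263 and 1.83 ± 0.035 CPM per kilobase, and ALDH1L2 was last at 0.204 ± 0.074. SHMT2 and MTHFD1L overlapped, as did PCK2 and SHMT1. With BAY-850 PSAT1 and SHMT2 remained first at 51.1 ± 4.71 and 26.3 ± 0.447 CPM per kilobase, PCK2 was at rank 5 with 11.1 ± 0.467 and PHGDH at rank 7 with 4.73 ± 0.431. The order depended on the length used. Per kilobase of the longest transcript, ASNS came before PSAT1 in PA-1 with DMSO, at 585 against 348 CPM per kilobase, PHGDH was at rank 3 with 230.0, MTHFD2 moved from rank 3 to rank 6 with 93.8, and ALDH1L2 rather than SHMT1 was last. In SK-OV-3 with DMSO, SHMT1 moved from rank 7 to rank 5 and PHGDH from rank 9 to rank 7, while PSAT1 stayed first and ALDH1L2 last.

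The other genes of these pathways were examined in 5 lists that leave the members out, 74 genes in all. Of the 67 tested in SK-OV-3, 14 rose and 8 fell with BAY-850 at an adjusted p under 0.05 (edgeR). Of the 68 tested in PA-1, 6 rose and 3 fell. Among all genes tested, 10.8% rose and 9.56% fell in SK-OV-3, and 4.65% rose and 2.48% fell in PA-1. The counts of each list below are to be read beside these shares, and the lists were chosen with earlier results known. The medians over the tested genes of the lists were 0.0013 and 0.046 on the log2 scale.

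In the list of serine and glycine metabolism, 2 of 15 genes tested rose and 1 fell in SK-OV-3, and 1 of 16 rose in PA-1. CBS and CTH, the enzymes that turn homocysteine and serine into cysteine, were those that rose in SK-OV-3. CBS had 22.9, 21.3 and 20.03 CPM with DMSO and 49.6, 51.7 and 53.9 CPM with BAY-850, and the log2 fold change was 1.29 ± 0.082 (adjusted p = 1.33e-06, edgeR). CTH had 4.53, 5.11 and 4.02 CPM with DMSO and 7.70, 7.18 and 9.10 CPM with BAY-850, and the log2 fold change was 0.83 ± 0.18 (adjusted p = 0.00684, edgeR). GCSH, the carrier protein of the glycine cleavage system, fell by 0.22 ± 0.068 on the log2 scale (adjusted p = 0.0401, edgeR), a call lost in 10 of 15 alternatives, among them leaving out any library (adjusted p up to 0.115, edgeR). In PA-1 CBS rose by 0.28 ± 0.051 (adjusted p = 0.00516, edgeR), a call lost with library size alone as the scale and with the replicate block and GC trend together (adjusted p at most 0.0820 over the alternatives).

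In the folate list, 1 of 20 genes tested rose and 5 fell in SK-OV-3, and 0 of 19 passed in either direction in PA-1 (edgeR), where 2 were higher and 3 lower at an unadjusted p under 0.05 and DESeq2 called 0 higher and 1 lower. TYMS, the thymidylate synthase that S-phase cells need, fell by 0.54 ± 0.054 on the log2 scale (adjusted p = 4.57e-05, edgeR), from 156, 156 and 152 CPM to 107, 102 and 108 CPM. The folate receptor FOLR1 fell by 0.60 ± 0.11 (adjusted p = 0.00302, edgeR). MTHFD1, the cytosolic counterpart of MTHFD2 and MTHFD1L, fell by 0.36 ± 0.065 (adjusted p = 0.00267, edgeR), from 79.3, 82.9 and 90.6 CPM to 63.6, 67.3 and 64.6 CPM. The purine enzyme ATIC, named after its values were seen, fell by 0.19 ± 0.053 (adjusted p = 0.0252, edgeR). In the same cells the members SHMT2 and MTHFD2, chosen with their responses known, were thus higher while TYMS, MTHFD1 and ATIC were lower. This does not describe whole arms of the pathway. In SK-OV-3, 14 of the 20 list genes tested were not called. The mitochondrial members MTHFD1L and ALDH1L2 were at 0.093 ± 0.059 and -0.52 ± 0.48 on the log2 scale.

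The related enzymes MTHFD2L and ALDH1L1 were low. MTHFD2L, a second mitochondrial dehydrogenase, had 8.12 to 10.3 CPM in SK-OV-3 with DMSO and 8.06 to 10.1 CPM with BAY-850, and its log2 fold change of 0.0086 ± 0.15 did not pass (adjusted p = 0.977, edgeR). ALDH1L1, the cytosolic counterpart of ALDH1L2, had 11 to 34 counts in a SK-OV-3 library and at most 6 in a PA-1 library.

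In the list of asparagine, aspartate and glutamine metabolism, 2 of 11 genes tested rose and 1 fell in SK-OV-3, and 1 rose and 1 fell in PA-1. ASRGL1, an asparaginase, fell in SK-OV-3 by 0.68 ± 0.061 on the log2 scale (adjusted p = 1.84e-05, edgeR), from 66.4, 63.9 and 64.7 CPM to 40.0, 41.0 and 39.2 CPM. ASS1, which uses aspartate to make argininosuccinate, rose in SK-OV-3 by 0.42 ± 0.068 (adjusted p = 0.00137, edgeR) and in PA-1 by 0.28 ± 0.056 (adjusted p = 0.00727, edgeR), the latter a call lost without DMSO replicate 2, with library size alone and with the replicate block and GC trend together (adjusted p up to 0.0728, edgeR). The aspartate aminotransferase GOT1 rose in SK-OV-3 by 0.37 ± 0.11 (adjusted p = 0.0390, edgeR), a call lost without DMSO replicate 2 or 3, without BAY-850 replicate 1 or 3, and with the replicate block, alone or with the GC trend (adjusted p up to 0.152, edgeR). NARS2, the mitochondrial asparaginyl-tRNA synthetase, fell in PA-1 by 0.22 ± 0.058 (adjusted p = 0.0332, edgeR), a call lost in 11 of 15 alternatives, among them leaving out any library (adjusted p up to 0.144, edgeR).

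In the list of phosphoenolpyruvate and pyruvate metabolism, 2 of 11 genes tested rose in SK-OV-3 and 4 of 12 in PA-1, with 0 falling in either line (edgeR). At an unadjusted p under 0.05 there was 1 lower in each line, and DESeq2 called 1 lower in SK-OV-3 and 0 in PA-1. The glycolytic enzyme PGK1 rose by 0.37 ± 0.042 on the log2 scale in SK-OV-3 (adjusted p = 1.26e-04, edgeR) and by 0.30 ± 0.048 in PA-1 (adjusted p = 0.00168, edgeR). ENO1, the enolase that makes phosphoenolpyruvate, rose by 0.22 ± 0.043 (adjusted p = 0.00398, edgeR) and by 0.26 ± 0.044 (adjusted p = 0.00232, edgeR). In PA-1 PGAM1 rose by 0.29 ± 0.050 (adjusted p = 0.00308, edgeR) and PKM by 0.22 ± 0.046 (adjusted p = 0.0124, edgeR), the latter a call lost without DMSO replicate 2 or BAY-850 replicate 2, with library size alone and with the replicate block and GC trend together (adjusted p up to 0.104, edgeR).

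The fifth list holds 10 transcription factors and other regulators known for these enzymes or for the amino acid response, of which 7 rose and 1 fell in SK-OV-3 while 2 fell and 0 rose in PA-1 (edgeR). In PA-1 DESeq2 called 5 lower and 0 higher, and 5 were lower and 1 higher at an unadjusted p under 0.05. NUPR1, a stress-induced nuclear protein, had 9.58, 9.73 and 8.24 CPM in SK-OV-3 with DMSO and 35.3, 37.7 and 29.4 CPM with BAY-850, and the log2 fold change was 1.90 ± 0.11 (adjusted p = 8.91e-07, edgeR). The pseudokinase gene TRIB3, a feedback target of ATF4, rose by 1.58 ± 0.078 (adjusted p = 1.70e-07, edgeR), and DDIT3, the stress factor CHOP, by 1.19 ± 0.057 (adjusted p = 1.36e-07, edgeR). CEBPB rose by 0.81 ± 0.059 (adjusted p = 4.08e-06, edgeR) and NFE2L2 by 0.30 ± 0.062 (adjusted p = 0.00586, edgeR).

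ATF4 itself had 421, 405 and 394 CPM in SK-OV-3 with DMSO and 547, 543 and 566 CPM with BAY-850, and the log2 fold change was 0.45 ± 0.049 (adjusted p = 8.07e-05, edgeR). In PA-1 it had 623, 617 and 567 CPM with DMSO and 526, 522 and 551 CPM with BAY-850, groups that did not overlap, and its log2 fold change of -0.17 ± 0.054 did not pass (adjusted p = 0.0679, edgeR). DDIT3 and NFE2L2 fell in PA-1, by 0.38 ± 0.062 and 0.25 ± 0.056 (adjusted p = 0.00196 and 0.0162, edgeR), and the call of NFE2L2 was lost without DMSO replicate 2 or without BAY-850 replicate 1 or 2 (adjusted p up to 0.0955, edgeR). Of the other regulators that passed in SK-OV-3, CEBPG rose by 0.56 ± 0.058 (adjusted p = 5.40e-05, edgeR) and ATF5 fell by 0.38 ± 0.074 (adjusted p = 0.00446, edgeR), both named after their values were seen. The levels are of RNA, and the amount of ATF4 protein was not measured in these files.

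**Figure D4:**
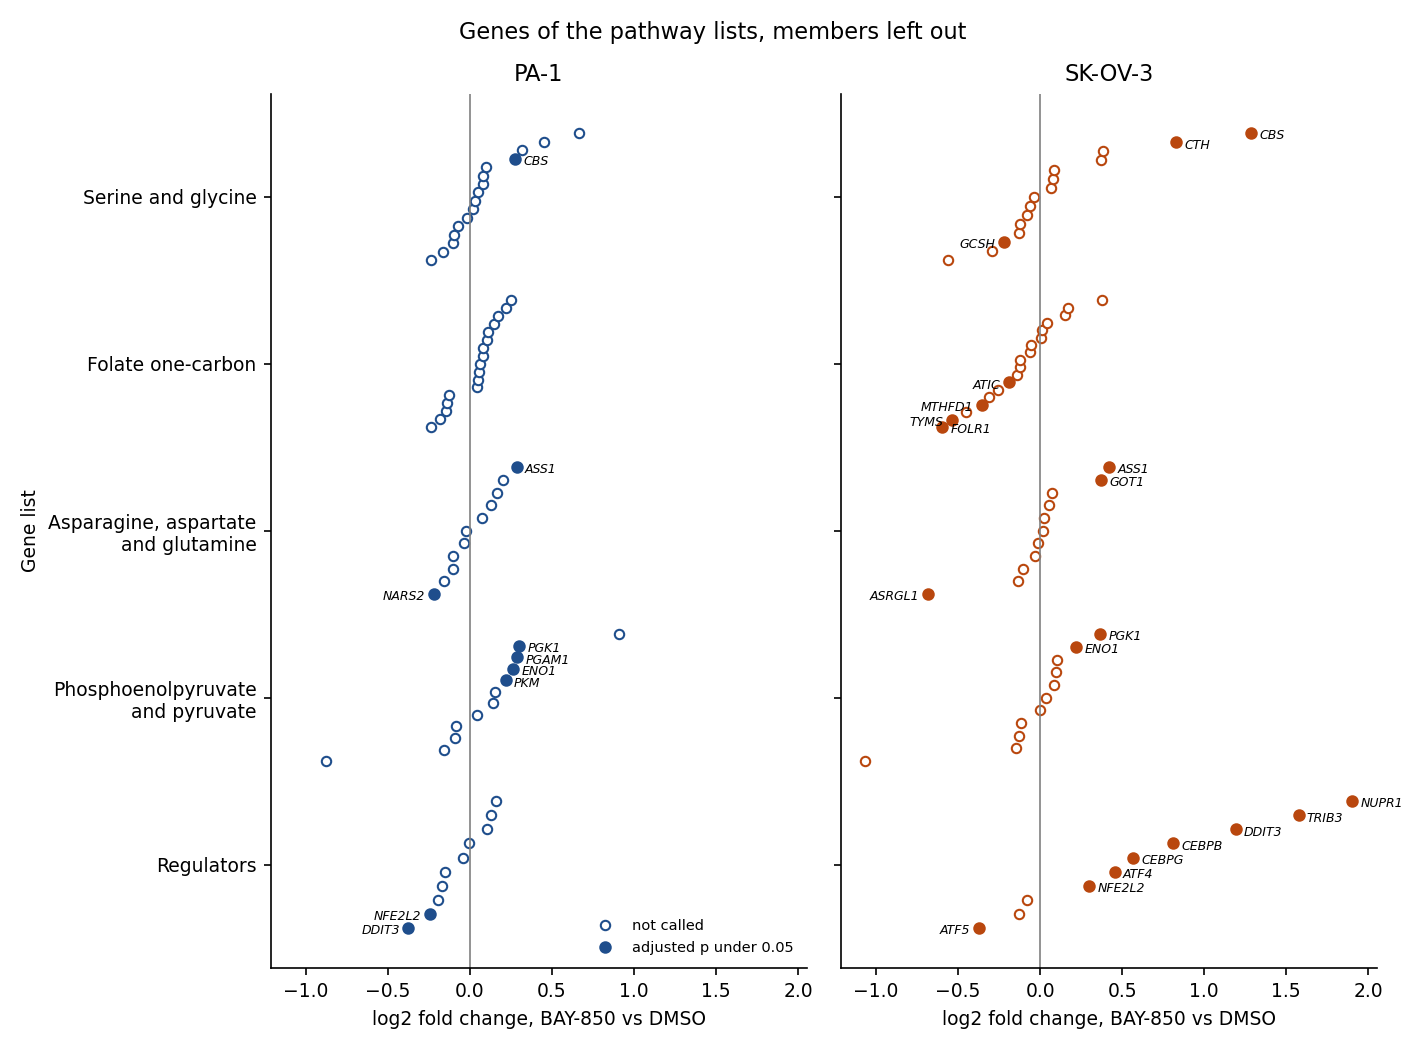
Log2 fold change of BAY-850 against DMSO for genes of 5 pathway lists in PA-1 (left) and SK-OV-3 (right), with filled points and names for genes at an adjusted p under 0.05 (edgeR) and open points for the others. In SK-OV-3 the regulators spread up to 1.90 for NUPR1 and the asparagine list down to -0.68 for ASRGL1, while in PA-1 the called genes lie between -0.38 and 0.30.

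With DMSO 39 of the 68 tested genes of the lists were lower in SK-OV-3 than in PA-1 and 19 higher, where 40.2% and 40.1% of all genes tested were. In the list of serine and glycine metabolism 11 of 16 were lower and 2 higher, with CBS 205 CPM in PA-1 and 21.4 CPM in SK-OV-3. In the asparagine list 9 of 11 were lower, with GOT1 at 188 and 14.9 CPM, and 2 were higher, among them ASRGL1 at 21.1 and 65.0 CPM. In the folate list 8 of 20 were lower and 9 higher, near the shares over all genes. DDIT3 and TRIB3 were lower in SK-OV-3 with DMSO too, by log2 differences of -2.18 ± 0.054 and -2.82 ± 0.062 (adjusted p = 1.41e-12 and 4.57e-13, edgeR), whereas NUPR1 did not pass (-0.19 ± 0.13, adjusted p = 0.207, edgeR).

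The genes whose log2 CPM over the 12 libraries was most like that of PCK2, among 14083 genes with a mean of at least 1 CPM, were AARS (r = 0.998), SMOC1 (r = 0.998), PLAT (r = 0.998), INHBE (r = 0.997) and TGIF1 (r = 0.997). Those most like PHGDH were HDAC5 (r = 0.999), TRPC1 (r = 0.998), YARS (r = 0.998), MARS (r = 0.998) and SPEG (r = 0.998). AARS, YARS and MARS encode cytosolic aminoacyl-tRNA synthetases. The 12 points fall into 2 lines that differ widely, so a high r follows from a similar step between the lines and is given as a description. INHBE, which encodes a subunit of an activin, had 42.5 CPM in PA-1 with DMSO and 0.147 CPM in SK-OV-3 with DMSO, the latter from 4 to 8 counts in a library, and 2.35 CPM in SK-OV-3 with BAY-850. AARS had 627 CPM in PA-1 in both groups, and 139 CPM in SK-OV-3 with DMSO and 272 CPM with BAY-850.

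Several members overlap another gene on the opposite strand, and whether the counting used strand is not given in the sources used here. SHMT1 overlaps SMCR8, which had a mean of 20.3 CPM over the 12 libraries, MTHFD2 overlaps SLC4A5 at 23.9 CPM and ALDH1L2 overlaps C12orf45 at 11.5 CPM. SHMT2 overlaps NDUFA4L2 at 0.581 CPM and PCK2 overlaps NRL at 1.03 CPM. The share of reads assigned to the wrong partner was not tested. It bears most on ALDH1L2 in SK-OV-3, with its 26 to 98 counts in a library.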

How the data were processed

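RNA of 12 libraries, 2 cell lines with 3 DMSO and 3 BAY-850 replicates each, was sequenced by the study. The protocol in the labels describes oligo-dT selection and the design text ribosomal RNA depletion, so which was used is not known. The values the authors deposited are expected counts for each gene symbol, not scaled between libraries. The submitters' processing notes name Bowtie2 2.1.0, RSEM 1.2.15 and hg38, and the annotation is not given in the sources used here. Totals were 34544505 to 51840233 counts per library, and a gene's precision follows its own count.

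From there, expected counts were rounded to whole numbers, filtered with filterByExpr, scaled by TMM and fitted with edgeR 4.0.16 (R 4.3.3) by its quasi-likelihood test. P-values were adjusted by Benjamini-Hochberg across every gene tested, with a threshold of 0.05. Each comparison within a line used its 6 libraries, the DMSO comparison of the lines the 6 DMSO libraries, and the difference of responses all 12. The p-values measure the spread between these samples. Gene positions, merged exon lengths and GC content came from GENCODE 29 (GRCh38), and promoter windows from RefSeq.

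The 10 genes and all lists were chosen with earlier results of these data known. Genes named from each pathway list were the up to 4 with the largest absolute log2 fold change per line among those past the threshold with a mean of at least 1 CPM, plus MTHFD1, MTHFD2L, ALDH1L1, PCK1 and ATF4, and the 5 genes most like PCK2 and PHGDH over the libraries. Alternatives were DESeq2 1.42.0, other scaling, other filters, a replicate block, removal of the GC trend, 1 fit of all libraries and leaving out each library. Some genes of the folate list are counted but not reported here by name or plotted.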

Additional observations from a re-analysis of the deposited data

Results flagged for a closer look

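ASNS had differences of opposite sign in the lines, at -0.059 ± 0.048 in PA-1 and 1.36 ± 0.097 in SK-OV-3 on the log2 scale. Replicates did not overlap in either. The difference in PA-1 was close to its error, and 5893 of 15212 genes tested there had a lower log2 fold change. The share of genes with both patterns was not counted. Of all genes tested, 13.3% were lower without overlap in PA-1 and 18.1% higher without overlap in SK-OV-3. ASNS was chosen with its responses known, so no p-value is given for the difference between the lines, which was 1.40 ± 0.086 as fitted.

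Of the 69 list genes tested for a difference in response between the lines, 11 passed in the higher and 8 in the lower direction (edgeR). Among all genes 6.7% and 7.77% did. The 13 given here are those named by the rule for named genes, with the SK-OV-3 response minus the PA-1 response on the log2 scale. Among the regulators this difference was 1.79 for NUPR1 (adjusted p = 1.32e-05, edgeR), 1.61 for TRIB3 (adjusted p = 5.62e-08, edgeR) and 1.56 for DDIT3 (adjusted p = 8.30e-09, edgeR). It was 0.81 for CEBPB (adjusted p = 6.05e-05, edgeR), 0.62 for ATF4 (adjusted p = 2.85e-05, edgeR) and 0.53 for NFE2L2 (adjusted p = 2.72e-04, edgeR).

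Among the cysteine and aspartate genes the difference was 1.05 for CTH (adjusted p = 7.66e-04, edgeR), 1.00 for CBS (adjusted p = 6.21e-07, edgeR), 0.47 for GOT1 (adjusted p = 0.00466, edgeR) and -0.90 for ASRGL1 (adjusted p = 2.88e-05, edgeR). Among the folate genes it was -0.60 for TYMS (adjusted p = 2.34e-05, edgeR) and -0.48 for MTHFD1 (adjusted p = 7.99e-04, edgeR). It was -0.66 for FOLR1 (adjusted p = 0.0239, edgeR), a call lost without PA-1 DMSO replicate 2, PA-1 BAY-850 replicate 3, SK-OV-3 DMSO replicate 3 or SK-OV-3 BAY-850 replicate 1 (adjusted p up to 0.0651, edgeR).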

How the results depend on the processing

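No called value changed direction under any alternative run. In PA-1 3 uncalled values did: PSPH (-0.010) was 0.071 without DMSO replicate 1, 0.025 without BAY-850 replicate 2 and 0.013 without BAY-850 replicate 3, MTHFD2 (-0.043) was 0.024 with the GC trend removed, with or without the block, and PCK2 (0.089) was -0.016 and -0.017. In PA-1, 1085 genes were called, against 1737 by DESeq2, 466 with library size alone, 566 with the GC trend removed, 403 with the replicate block and GC trend together, 683 in a fit of all 12 libraries, and 340 to 1228 with 1 library left out. The lowest was without DMSO replicate 2. In SK-OV-3, 3130 genes were called, and 1781 to 3902 with 1 library left out, the lowest without DMSO replicate 2. Of the pathway genes, 9 were called in PA-1, against 14 by DESeq2, 5 with library size alone, and 5 to 12 with 1 library left out. Of the 10 enzymes, 1 was called in PA-1, against 2 by DESeq2 and 0 with library size alone, with the GC trend removed, with the replicate block, with the block and GC trend together, and with any library left out. The cause of these shifts was not tested. Same-numbered libraries did not deviate together, so no pairing by replicate number was seen in the values. Whether the cultures were set up in pairs is not given in the sources used here. As a block, the replicate numbers gave 931 called genes in PA-1, 2716 in SK-OV-3, 1957 for the difference of responses and 12830 between the lines with DMSO. Low counts limit ALDH1L2 in SK-OV-3, at 26 to 98 counts in a library.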
